A study of Mus musculus and Homo sapiens with 67 samples.

Results

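The subject is the effect of RMC-6236 on mouse pancreatic cancer cells of the KPC type, measured once in culture and once in tumours that grew in the pancreas. The effect in tumours was the RMC-6236 mean minus the vehicle mean on the log2(FPKM + 1) scale, and the effect in culture was the RMC-6236 mean minus the DMSO mean on the same scale. FPKM counts the fragments of a gene relative to its transcript length and to all fragments mapped in the library. Genes were joined by gene ID and kept where the control mean reached 1 FPKM in both tables. That left 11316 of 55335 gene IDs, of which 11303 were tested in both tables and are described here. At the edge of the rule, Fancc had a control mean of 1.32 FPKM in tumours and 1.0004 FPKM in cells and was kept, and Arntl2 had 1.99 FPKM in tumours and 0.999 FPKM in cells and was not.

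The RMC-6236 tumours (4 samples) came from mice that carried KPC tumours and were given RMC-6236, and the vehicle tumours (4 samples) from mice given the carrier alone. The RMC-6236 cells (3 samples) were KPC cells in culture with RMC-6236, and the DMSO cells (3 samples) were the same cells with its solvent. These 14 samples belong to a series of 67. Further samples of both kinds received tazemetostat, an inhibitor of the histone methyltransferase EZH2, alone or with RMC-6236 (4 tumours and 3 cell samples in each arm), and they give a second estimate of the RMC-6236 effect. The labels give no dose, no treatment time and no host strain. They do not say whether the cell line of the tumours is the cultured one, nor whether cell samples were separate cultures, so the spread behind p-values for cells may be technical only. The tables were normalised separately, so only effects, not levels, are compared between tumours and cells.

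KPC cells are a widely used mouse model of pancreatic cancer. RMC-6236 binds RAS proteins in their active, GTP-bound state and blocks the signal to the RAF, MEK and ERK kinases. ERK switches on its own feedback inhibitors, growth factor ligands and ETS transcription factors, and in dividing cells it drives the entry into the cell cycle, the building of ribosomes and the uptake and synthesis of nutrients. A tumour in the pancreas also holds fibroblasts, macrophages, vessels and remains of pancreas, which a culture lacks.

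Each library had between 11673 and 12795 genes at 1 FPKM or more, and mitochondrial genes took 9.67 to 12.1% of the FPKM sum in RMC-6236 tumours, 10.1 to 11.9% in vehicle tumours, 11.7 to 12.3% in RMC-6236 cells and 9.84 to 10.3% in DMSO cells. Marker genes of some cell types differed between the tumour arms. The 5 epithelial markers (Krt8, Krt18, Krt19, Epcam, Cdh1) summed to between 1410 and 1947 FPKM in RMC-6236 tumours and between 3063 and 3784 FPKM in vehicle tumours, and 4 of the 5 fell. The 14 fibroblast markers summed to between 3318 and 4352 FPKM in RMC-6236 tumours and between 991 and 1384 FPKM in vehicle tumours, and 10 rose. The 14 macrophage markers summed to between 1563 and 2581 FPKM in RMC-6236 tumours and between 803 and 1036 FPKM in vehicle tumours, and 10 rose. Most of that sum was Lyz2 and Apoe. Mrc1 was lower without overlap (11.8 to 15.2 FPKM in RMC-6236 tumours, 15.5 to 19.3 FPKM in vehicle tumours), although no macrophage marker was called lower. For Cd14 the arms overlapped (25.2 to 33.7 FPKM in RMC-6236 tumours, 26.7 to 35.3 FPKM in vehicle tumours). Of the endothelial markers 3 of 10 rose, and of the 7 smooth muscle and pericyte markers tested 2 rose. These counts lay near the share over all genes tested in tumours, of which 20.3% rose. The smooth muscle and pericyte list summed to between 94.1 and 189 FPKM in RMC-6236 tumours and between 21.7 and 36.2 FPKM in vehicle tumours. In RMC-6236 tumours most of it was Acta2 (67.8 to 145 FPKM, against 8.06 to 15.4 FPKM in vehicle tumours). For Mcam the arms overlapped (4.96 to 6.95 FPKM in RMC-6236 tumours, 4.99 to 11.1 FPKM in vehicle tumours). No T cell (1 of 8 tested), B cell (2 of 6), neutrophil (7 of 8) or dendritic marker (2 of 7) passed the test in tumours. No acinar (10 of 11 tested), islet (7 of 7), erythroid (4 of 6) or adipocyte marker (3 of 5) did so either. The others of these lists, and every cytotoxic cell marker, were not high enough to be tested. The absence of calls does not show equal content, since single tumours varied widely. The islet markers summed to between 0.105 and 86.1 FPKM in RMC-6236 tumours and between 3.10 and 12.4 FPKM in vehicle tumours. For acinar markers these ranges were 5.28 to 92.9 and 12.1 to 43.5 FPKM, and for B cell markers 3.19 to 313 and 0.654 to 26.7 FPKM. In the cells the epithelial markers summed to between 2838 and 2872 FPKM with RMC-6236 and between 3349 and 3479 FPKM with DMSO. There 5 of the 14 fibroblast markers and 4 of the 14 macrophage markers reached 1 FPKM with DMSO, with Cd14 at 58.9 to 64.6 FPKM. The fibroblast list summed to between 68.1 and 68.7 FPKM with RMC-6236 and between 43.2 and 43.9 FPKM with DMSO. Of its 5 members at that level 4 rose and 1 fell in cells. Acta2 had 1.74 to 2.21 FPKM with RMC-6236 and 0.0988 to 0.164 FPKM with DMSO. The macrophage list summed to between 74.9 and 78.3 FPKM with RMC-6236 and between 76.2 and 81.4 FPKM with DMSO. Its members Adgre1, C1qa, C1qb, C1qc, Cx3cr1 and Fcgr1 were at 0 in every cell library. The tumour samples are bulk tissue, in which fewer cells of a type and less RNA per cell cannot be told apart. How far a change in the mix of cells takes part in any tumour effect below was not tested.

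More genes passed the test in culture than in tumours, and standard errors were smaller in culture, so the counts also reflect precision. In tumours, 4419 of the 11303 genes passed the threshold (an adjusted p under 0.05, limma with Benjamini-Hochberg adjustment), 1974 higher and 2445 lower, which is 39.1% (17.5% higher, 21.6% lower). In cells 8396 passed, 4139 higher and 4257 lower, which is 74.3% (36.6% higher, 37.7% lower). Among all genes tested in each table, whatever their level in the other, the share was 39.4% in tumours (20.3% higher, 19.2% lower) and 73.7% in cells (37.9% higher, 35.8% lower). The effects were also smaller in tumours, with a median size of 0.17 log2 units and a median standard error of 0.083, against a median size of 0.29 and a median standard error of 0.051 in cells. The difference of the 2 effects, tumours minus cells, was called for 6293 genes, 55.7% of those tested, with the tumour effect above the cell effect for 26.9% and below it for 28.8%. Across genes, which share their libraries and are not independent, the tumour and cell effects correlated with Spearman's rho 0.27 and Pearson's r 0.31.

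By these 3 tests, 1108 genes rose in both tumours and cells and 1361 fell in both. Another 439 genes rose in tumours and fell in cells, and 560 fell in tumours and rose in cells. Genes called in tumours and not in cells, with a called difference, numbered 302 higher and 362 lower. Genes called in cells and not in tumours, with a called difference, numbered 1745 higher and 1750 lower. Of the genes that rose in tumours, 56.1% rose and 22.2% fell in cells, and of those that fell in tumours 55.7% fell and 22.9% rose in cells. For 1433 genes called in cells alone and 287 called in tumours alone the difference was not called, so a separate response is not shown for them.

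**Figure D1:**
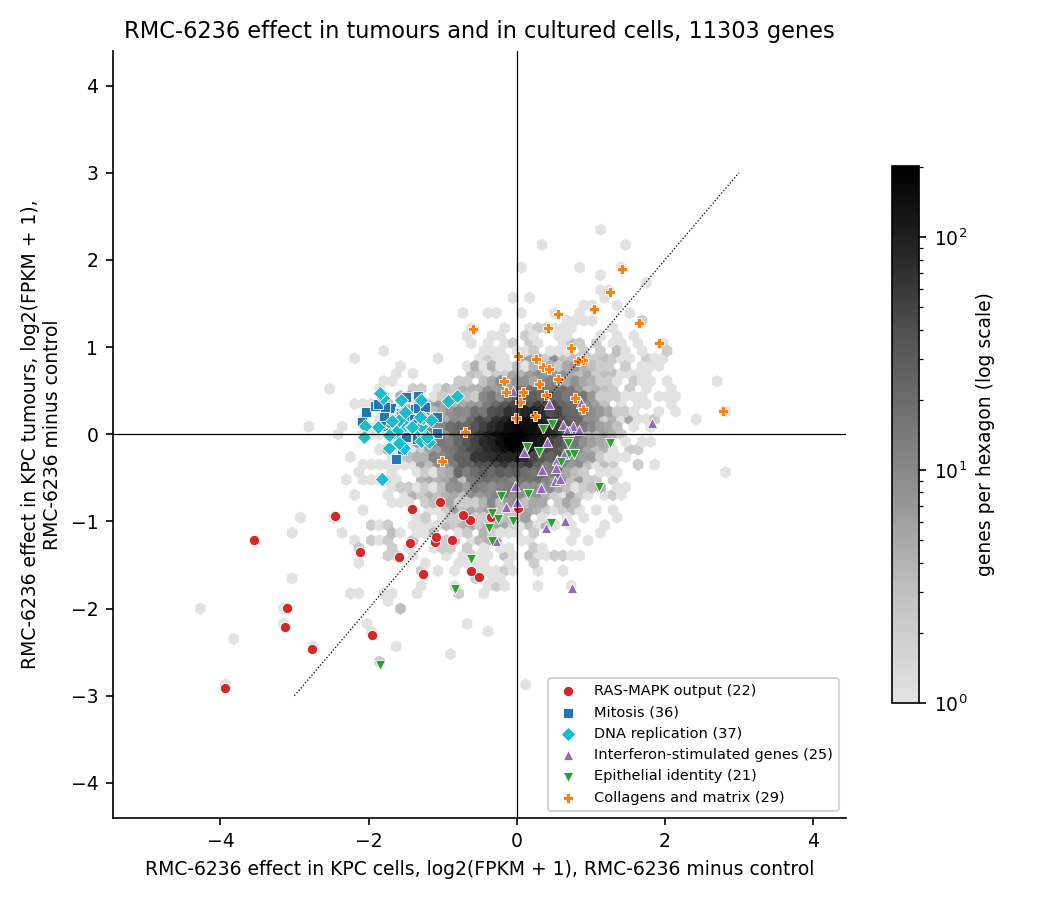
RMC-6236 effect on each of 11303 genes in tumours (vertical axis) and cells (horizontal axis), both in log2(FPKM + 1), with hexagons shaded by the number of genes on a log scale, 6 gene lists in colour and a dotted line of equal effects. The RAS-MAPK genes lie low on both axes, while the mitosis and DNA replication genes lie between -0.51 and 0.47 on the axis for tumours and between -2.08 and -0.80 on the axis for cells.

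The classes were set from the effects in RMC-6236 and control samples. The combination and tazemetostat samples entered only through the shared estimate of spread and the level filter, which counted libraries of all 4 arms. In those other 14 samples the RMC-6236 effect is the combination minus tazemetostat alone, and the difference between tumours and cells was called for 60.4% of the genes, with the tumour effect above for 27.1% and below for 33.3%. Among the 439 genes higher in tumours and lower in cells, the difference was again called with the same sign for 421 (95.9%), and among the 560 genes lower in tumours and higher in cells for 535 (95.5%), with none called with the other sign. For genes changed in tumours only the same held for 202 of 302 higher (66.9%) and 262 of 362 lower (72.4%), with 4 and 3 called the other way. For genes changed in cells only it held for 1448 of 1745 higher (83.0%) and 1396 of 1750 lower (79.8%), with 4 and 5 the other way. Of the genes that rose in both, 848 of 1108 rose again in tumours and 988 in cells, where 24.7% of all genes tested in tumours and 39% of those tested in cells rose (51% in tumours and 76.3% in cells were called in either direction). Of those that fell in both, 1210 of 1361 fell again in tumours and 1206 in cells, where 26.3% of all genes tested in tumours and 37.3% of those tested in cells fell. Across genes, the difference from one set of samples had Spearman's rho 0.86 with the difference from the other.

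**Figure D2:**
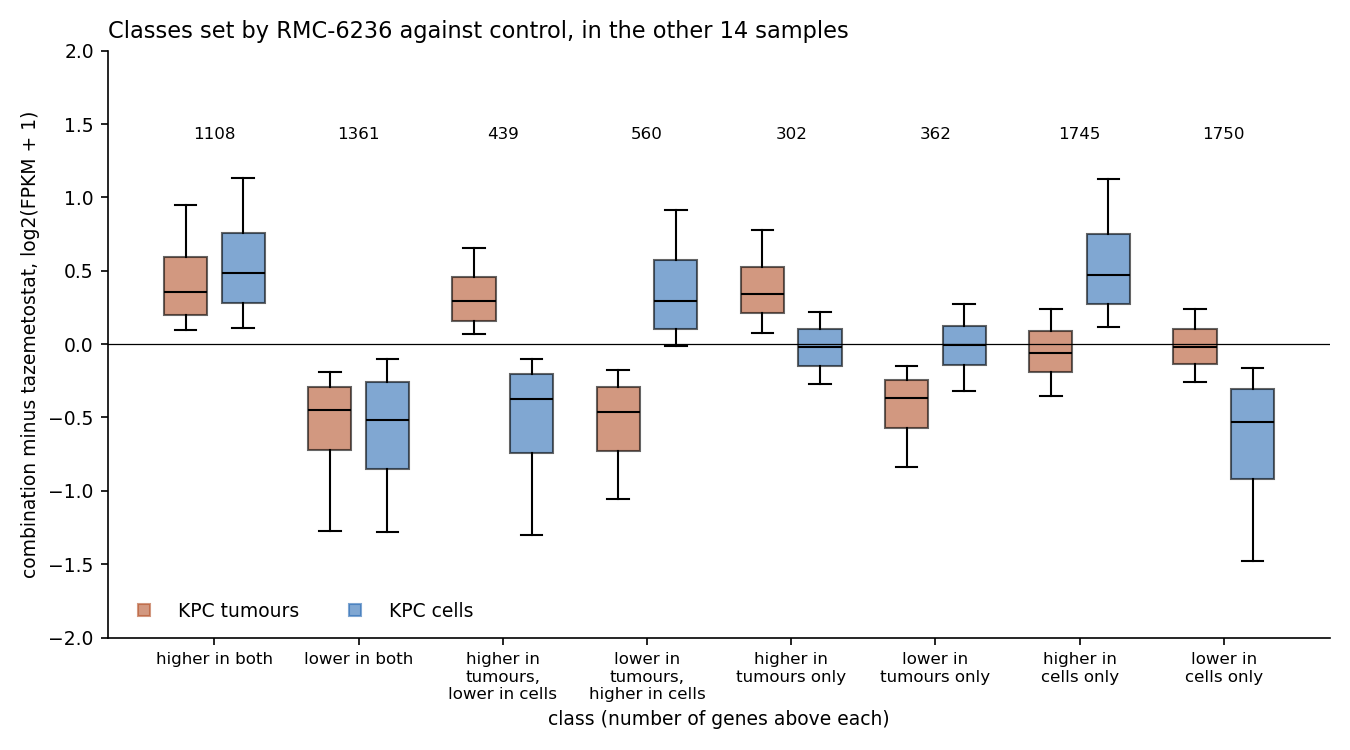
Effect of RMC-6236 on a tazemetostat background (combination minus tazemetostat, log2(FPKM + 1)) in tumours and cells, for the 8 classes set from the other samples, with median, quartiles and whiskers at the tenth and ninetieth percentiles of genes. The median for the 439 genes higher in tumours and lower in cells was 0.29 in tumours and -0.37 in cells, and for the 560 genes lower in tumours and higher in cells it was -0.46 in tumours and 0.29 in cells.

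The direct output of RAS signalling fell in both settings. Of the 25 listed RAS-MAPK output genes 22 met the level rule, and 21 of them fell in tumours (median effect -1.24) and 21 in cells (median -1.34), none rising in either. Over all 11303 genes the median effect was -0.02 in tumours and -0.0028 in cells. Of all these genes 17.5% rose and 21.6% fell in tumours, and 36.6% rose and 37.7% fell in cells. The tumour effect was called above the cell effect for 26.9% and below it for 28.8%. These are the shares to set beside every list count of called genes below. Dusp6 encodes a phosphatase that removes the activating phosphates from ERK. It had 15.6, 14.8, 8.13 and 5.13 FPKM in RMC-6236 tumours, against 56.2, 67.96, 61.3 and 53.99 FPKM in vehicle tumours. In culture it had 14.8, 15.2 and 14.1 FPKM in RMC-6236 cells, against 104, 104 and 109 FPKM in DMSO cells. The arms did not overlap in either setting, and the effects of -2.46 ± 0.32 in tumours (SE, adjusted p = 5.50e-05) and -2.76 ± 0.037 in cells (adjusted p = 1.87e-14) had a difference of 0.30 ± 0.32 that passed no test (adjusted p = 0.445, 95% interval -0.38 to 0.99).

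Dusp5, a nuclear ERK phosphatase, likewise fell in both, at -2.30 ± 0.21 in tumours and -1.95 ± 0.037 in cells (difference -0.35 ± 0.21, adjusted p = 0.17). Areg, which encodes the EGFR ligand amphiregulin, had 3.35, 7.18, 3.42 and 2.16 FPKM in RMC-6236 tumours, against 35.8, 30.2, 39.00 and 33.1 FPKM in vehicle tumours. In cells, Areg had 0.225, 0.632 and 0.56 FPKM in RMC-6236 cells, against 22.4, 18.9 and 22.7 FPKM in DMSO cells. Its falls were the largest of the list in both settings, and the fall in tumours was the smaller one, with a difference of 1.03 ± 0.29 (adjusted p = 0.00594). The feedback inhibitor Spry4 (-1.99 ± 0.21 in tumours, -3.10 ± 0.054 in cells) and the ETS factor Etv5 (-2.21 ± 0.30 in tumours, -3.12 ± 0.051 in cells) likewise fell in both and less in tumours, although the difference for Etv5 passed no test without RMC-6236 tumour 1 (0.75). Il5ra, the alpha chain of the interleukin 5 receptor and no member of the list, fell by the same pattern, at -2.37 ± 0.26 in tumours and -3.78 ± 0.038 in cells.

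The ETS factor Etv4 showed the largest gap among RAS-MAPK genes that fell in both. It had 22.3, 27.4, 27.6 and 23.2 FPKM in RMC-6236 tumours, against 61.2, 53.6, 62.5 and 60.8 FPKM in vehicle tumours. Cultured cells held Etv4 at 4.89, 5.21 and 4.41 FPKM in RMC-6236 cells, against 65.6, 67.05 and 67.9 FPKM in DMSO cells. The tumour effect of -1.22 ± 0.15 lay 2.33 ± 0.15 log2 units above the cell effect (adjusted p = 8.11e-10), and the other 14 samples gave a difference of 2.30. The immediate early gene Egr1 had 10.9, 19.3, 4.32 and 3.74 FPKM in RMC-6236 tumours, against 13.6, 15.5, 14.9 and 20.6 FPKM in vehicle tumours, so that the tumour arms overlapped (effect -0.94 ± 0.38, adjusted p = 0.0652; without RMC-6236 tumour 2 the effect was -1.34 and passed the test), and it fell in cells (-2.45 ± 0.048). Epha2, an ephrin receptor induced by ERK, went the other way, with a larger fall in tumours (-1.64 ± 0.17) than in cells (-0.50 ± 0.027; difference adjusted p = 3.13e-05). Over the list, the tumour effect was above the cell effect for 7 genes and below it for 4 (for 7 without RMC-6236 tumour 2), and the median difference was 0.04. In the other 14 samples it was above for 6 and below for 7, with a median difference of -0.16.

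**Figure D3:**
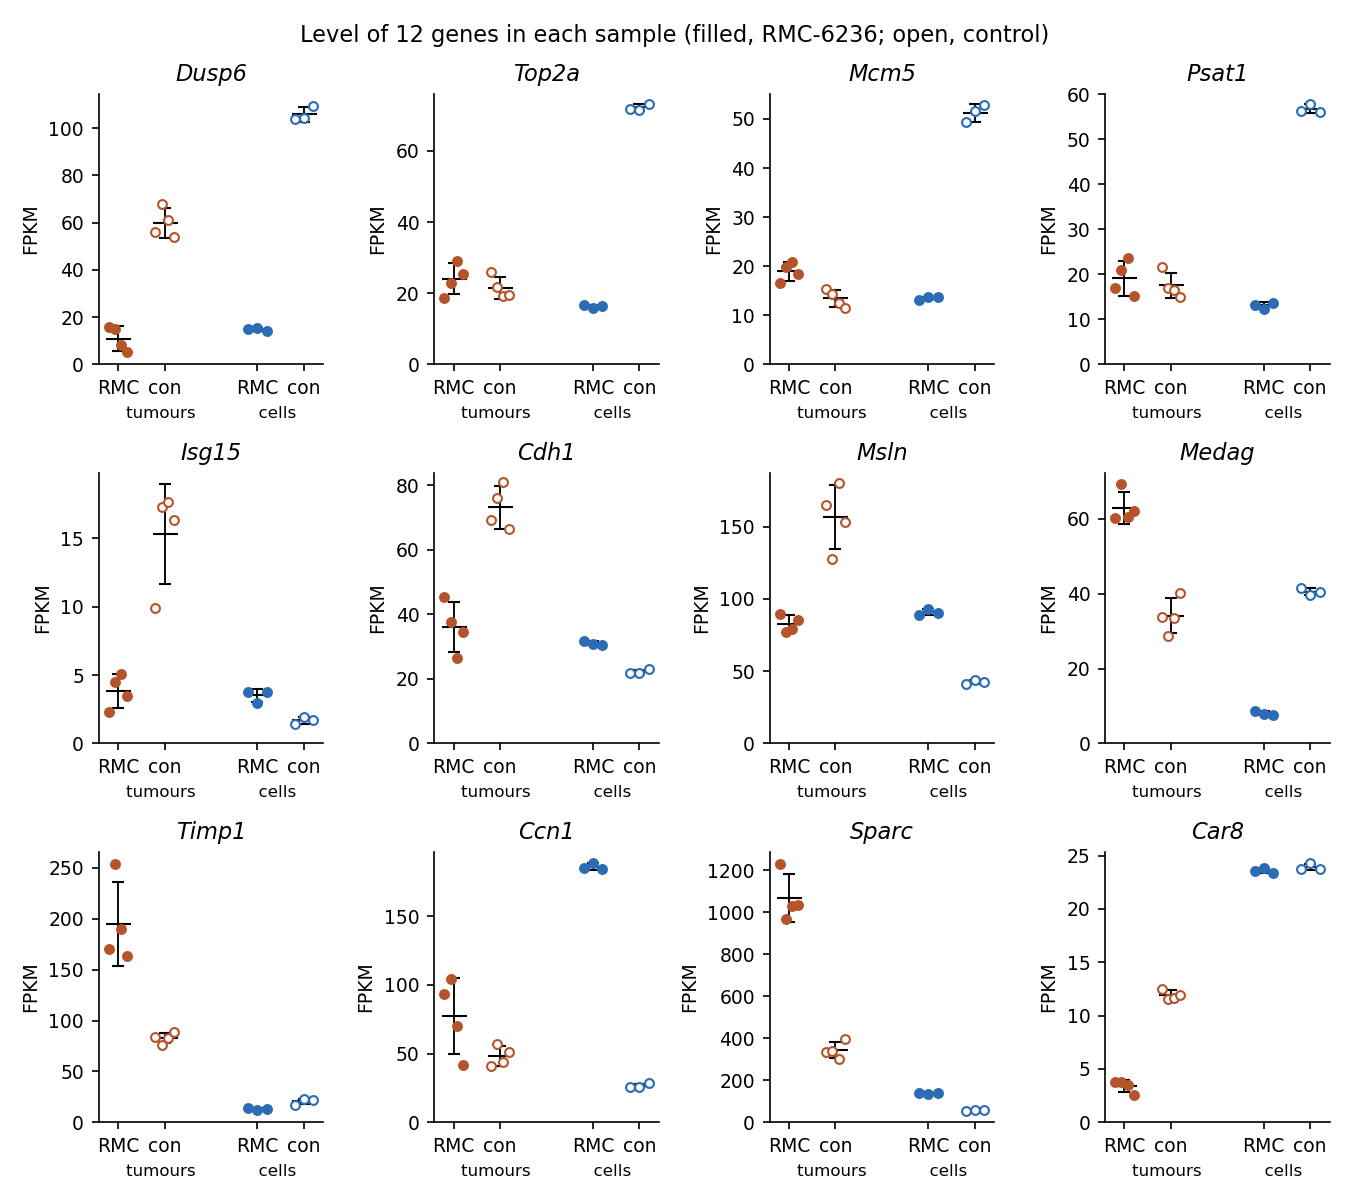
FPKM of 12 genes in every tumour and cell sample, RMC-6236 filled and left, control open and right, with the mean and SD of each arm. Dusp6 falls in both settings, Top2a and Psat1 overlap between the tumour arms and fall in cells, Mcm5 is higher in RMC-6236 tumours and lower in RMC-6236 cells, and Cdh1 and Msln are lower in RMC-6236 tumours and higher in RMC-6236 cells than in their controls.

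Among the 24 gene lists the cell cycle held the widest gap between the settings. All 36 mitosis genes fell in cells (median effect -1.55), while in tumours 4 rose, none fell and the median effect was 0.20. All 37 DNA replication genes that met the level rule fell in cells (median -1.52), while in tumours 7 rose, 1 fell and the median was 0.10. The tumour effect was above the cell effect for all 36 and all 37, with median differences of 1.70 and 1.61. In the other 14 samples it was again above for all 36 (median 2.05) and all 37 (median 1.73), and in tumours 14 mitosis genes rose and 1 fell. The number of mitosis genes that rose in RMC-6236 tumours hung on single tumours, with 20 without RMC-6236 tumour 1, 0 without RMC-6236 tumour 3, 1 without RMC-6236 tumour 4, 2 without vehicle tumour 2, 0 without vehicle tumour 3 and 1 without vehicle tumour 4, and in none of these did a mitosis gene fall.

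Top2a, the topoisomerase that untangles DNA before mitosis, had 18.7, 22.9, 29.00 and 25.5 FPKM in RMC-6236 tumours, against 25.9, 21.6, 19.1 and 19.5 FPKM in vehicle tumours. Top2a in culture stood at 16.6, 15.9 and 16.3 FPKM in RMC-6236 cells, against 71.7, 71.6 and 73.3 FPKM in DMSO cells. The tumour arms overlapped and the cell arms lay far apart, with effects of 0.14 ± 0.13 in tumours (adjusted p = 0.419) and -2.08 ± 0.033 in cells (adjusted p = 6.66e-14). The mitotic kinase Aurkb had 0.25 ± 0.12 in tumours and -2.04 ± 0.041 in cells, cyclin A2 (Ccna2) had 0.32 ± 0.13 in tumours and -1.92 ± 0.04 in cells, and the kinase Plk1 had 0.35 ± 0.17 in tumours and -1.87 ± 0.057 in cells. None of these 4 genes passed the test in tumours, where the adjusted p-values lay between 0.0582 and 0.419. In RMC-6236 tumours the first replicate stood lowest for each of the 4 genes. Without it Aurkb (0.34), Ccna2 (0.43) and Plk1 (0.49) passed the test as higher, and Ccna2 did so too without vehicle tumour 1 (0.38).

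Spc24, a part of the kinetochore complex that holds chromosomes to the spindle, rose in tumours and fell in cells. It had 4.48, 4.86, 6.58 and 6.68 FPKM in RMC-6236 tumours, against 3.88, 2.96, 2.48 and 3.21 FPKM in vehicle tumours. For Spc24 the cultures gave 3.02, 2.72 and 3.09 FPKM in RMC-6236 cells, against 8.83, 10.1 and 9.81 FPKM in DMSO cells. Mcm5, a subunit of the replicative helicase, had 16.6, 19.8, 20.9 and 18.4 FPKM in RMC-6236 tumours, against 15.3, 14.4, 12.5 and 11.5 FPKM in vehicle tumours. In culture it had 13.2, 13.6 and 13.7 FPKM in RMC-6236 cells, against 49.3, 51.7 and 52.9 FPKM in DMSO cells. For both genes the arms did not overlap in either setting, and the difference was 2.11 ± 0.13 for Spc24 (adjusted p = 1.52e-11) and 2.32 ± 0.13 for Mcm5 (adjusted p = 1.03e-10). Cdc45, which joins the helicase at origins, rose in tumours (0.41 ± 0.11, with overlapping arms) and fell in cells (-1.81 ± 0.07). Mcm3 (0.10 ± 0.11, adjusted p = 0.521) and Uhrf1, which directs the maintenance of DNA methylation (-0.03 ± 0.13, adjusted p = 0.862), passed no test in tumours, and both fell in cells (-2.05 ± 0.043 for Mcm3 and -2.06 ± 0.033 for Uhrf1).

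Genes that restrain the cycle did not move as one group, and in tumours their counts lay near the shares over all genes (17.5% higher, 21.6% lower). Of 27 CDK inhibitor and quiescence genes, 6 rose and 5 fell in tumours (median 0.10; 3 fell without RMC-6236 tumour 4 or vehicle tumour 4), and 16 rose and 9 fell in cells (median 0.16). Cdkn2c, an inhibitor of CDK4 and CDK6, rose in tumours, with 12.1, 12.6, 17.5 and 17.8 FPKM in RMC-6236 tumours, against 10.3, 9.42, 8.35 and 8.80 FPKM in vehicle tumours, and fell in cells, with 10.2, 11.4 and 9.83 FPKM in RMC-6236 cells, against 17.3, 16.9 and 18.5 FPKM in DMSO cells. The pocket protein gene Rbl1 had 0.21 ± 0.085 in tumours (adjusted p = 0.0607; 0.27 and called without RMC-6236 tumour 1) and fell in cells (-1.41 ± 0.054).

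Promoters of 2 mitosis genes are shown because they carry the cell cycle genes homology region (CHR), a short element of promoters that are silent in resting cells and active before mitosis. The sequences are from RefSeq on GRCm38.p6 and run from 250 bases before to 50 after the start, 5′ to 3′ on the gene's strand, with the CHR letters TTTGAA (or TTCAAA on the other strand) in capitals. Plk1 lies at chr7:122159185-122159484 (plus strand) and Top2a at chr11:99024140-99024439 (minus strand).
Plk1: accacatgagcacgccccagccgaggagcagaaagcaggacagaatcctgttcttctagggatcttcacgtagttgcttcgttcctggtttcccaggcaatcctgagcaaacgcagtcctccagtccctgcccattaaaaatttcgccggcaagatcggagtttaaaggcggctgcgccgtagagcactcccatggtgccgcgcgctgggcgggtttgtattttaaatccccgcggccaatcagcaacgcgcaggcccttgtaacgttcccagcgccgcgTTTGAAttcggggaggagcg
Top2a: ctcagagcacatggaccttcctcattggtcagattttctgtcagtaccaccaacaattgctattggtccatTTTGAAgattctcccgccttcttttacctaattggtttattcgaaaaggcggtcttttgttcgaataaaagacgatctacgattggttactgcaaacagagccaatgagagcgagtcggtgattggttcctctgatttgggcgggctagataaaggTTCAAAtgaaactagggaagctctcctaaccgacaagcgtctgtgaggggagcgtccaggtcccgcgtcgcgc
On either strand the CHR letters were in 25 of 32 promoters of mitosis genes (78.1%) and in 4 of 36 of DNA replication genes (11.1%). They were in 11.5% of the 10684 promoters of the genes described here and in 17.9% of all 32851 promoters of this length. The CCAAT box, searched as CCAAT on both strands, was in 75% of mitosis and 58.3% of DNA replication promoters. It was in 38.2% of the promoters of the genes described here and in 37.4% of all promoters. A CCAAT match may share bases with a CHR match. A match of letters is a description and shows no binding.

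**Figure D4:**
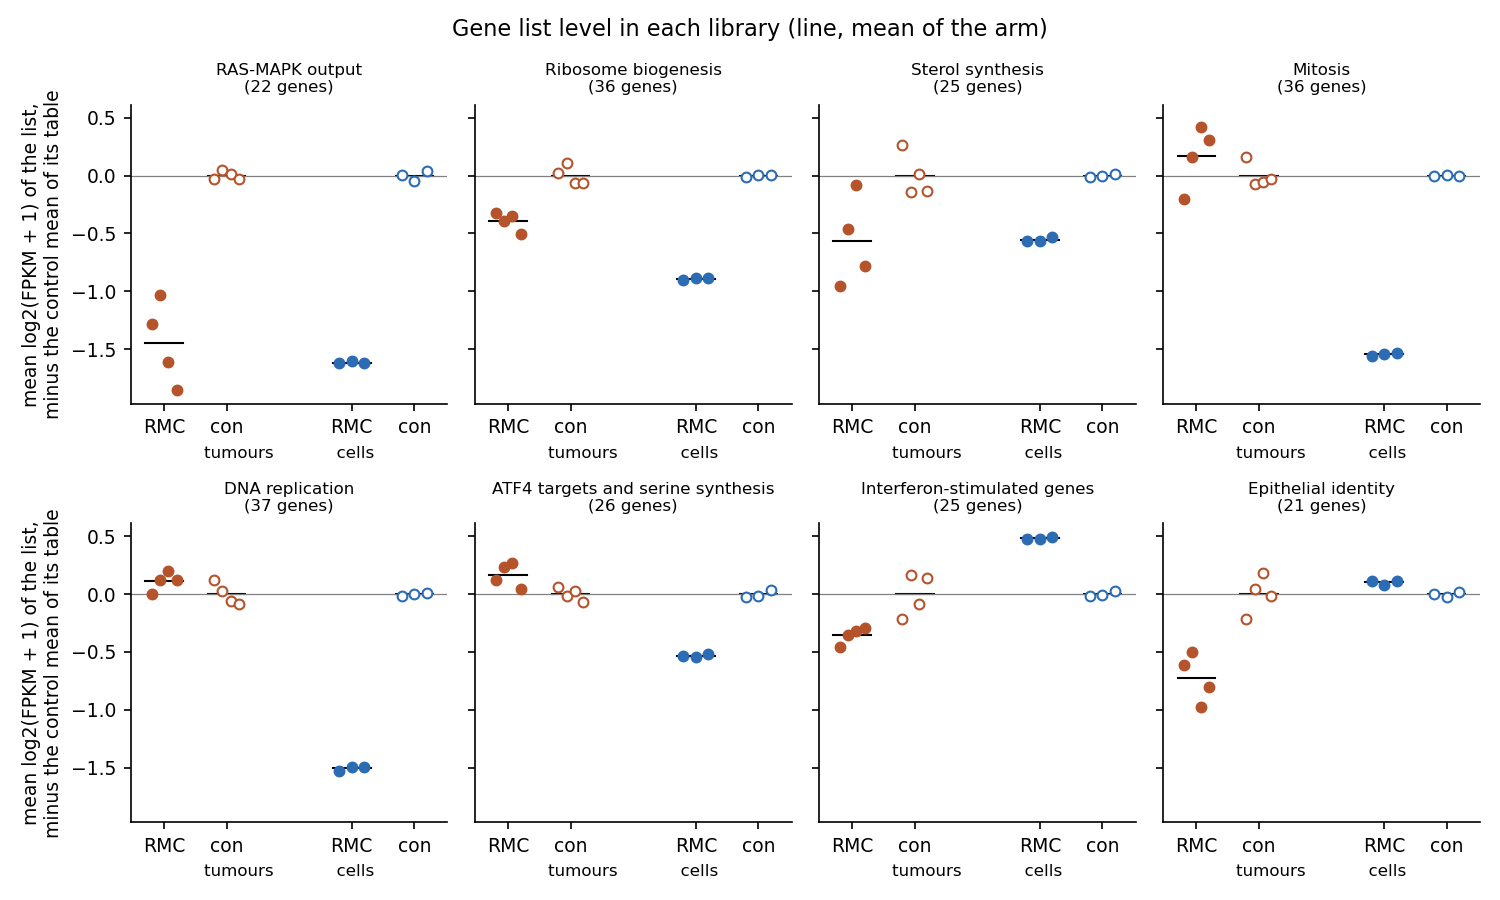
Mean log2(FPKM + 1) of 8 gene lists in each library, minus the control mean of the same table, with RMC-6236 (filled) left of control (open). The RAS-MAPK score lay between -1.86 and -1.03 in RMC-6236 tumours and between -1.62 and -1.61 in RMC-6236 cells, and the mitosis score between -0.20 and 0.42 in RMC-6236 tumours and between -1.56 and -1.54 in RMC-6236 cells.

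Genes of amino acid supply fell in cells and did not fall as a group in tumours. The ATF4 and serine synthesis list holds genes of the response to amino acid shortage, and of its 26 members 8 rose and 2 fell in tumours (median effect 0.21), whereas 6 rose and 17 fell in cells (median -0.58). The tumour effect was above the cell effect for 17 genes and below it for 3 (5 without vehicle tumour 2). Psat1, an enzyme of serine synthesis, had 16.9, 20.9, 23.6 and 15.1 FPKM in RMC-6236 tumours, against 21.5, 17.04, 16.6 and 14.97 FPKM in vehicle tumours. In cells, Psat1 had 13.2, 12.3 and 13.7 FPKM in RMC-6236 cells, against 56.2, 57.9 and 56.2 FPKM in DMSO cells. The tumour arms overlapped (0.11 ± 0.15, adjusted p = 0.588), and the difference of 2.15 ± 0.15 was called (adjusted p = 4.69e-09).

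Slc7a5, a transporter of large neutral amino acids, showed the same contrast, with an effect of 0.05 ± 0.11 in tumours (adjusted p = 0.744) and -2.35 ± 0.041 in cells (adjusted p = 1.32e-13). Shmt2, the mitochondrial enzyme that takes 1-carbon units from serine, had 0.23 ± 0.12 in tumours (adjusted p = 0.15) and -1.73 ± 0.041 in cells. Atf5, a stress-induced transcription factor, rose in tumours, with 55.8, 51.4, 59.8 and 38.2 FPKM in RMC-6236 tumours, against 21.7, 21.8, 16.6 and 16.5 FPKM in vehicle tumours, and fell in cells, with 10.3, 9.53 and 10.4 FPKM in RMC-6236 cells, against 13.6, 13.3 and 15.1 FPKM in DMSO cells. In the other 14 samples the difference was above 0 for 17 and below for 4 of the 26, while in tumours 4 rose and 7 fell, against 8 and 2 without tazemetostat.

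Genes of ribosome building fell in both settings, and less in tumours. Of 36 ribosome biogenesis genes 27 fell and 1 rose in tumours (median -0.41), and 35 fell in cells (median -0.87). The tumour effect was above the cell effect for 29 genes and below it for 1. Nop56, a core protein of the small nucleolar particles that guide RNA methylation, had 28.4, 29.01, 28.6 and 22.03 FPKM in RMC-6236 tumours, against 39.4, 43.9, 36.4 and 35.1 FPKM in vehicle tumours. Cultured cells held Nop56 at 24.1, 23.3 and 23.1 FPKM in RMC-6236 cells, against 72.4, 75.6 and 73.3 FPKM in DMSO cells. The arms did not overlap in either setting and the difference was 1.10 ± 0.15 (adjusted p = 9.55e-06). Lyar, a nucleolar protein outside the list, fell in both as well (-0.37 ± 0.13 in tumours, -2.02 ± 0.041 in cells), although its fall in tumours was close to the threshold (adjusted p = 0.0402) and passed no test without any 1 of the 4 RMC-6236 tumours or of vehicle tumours 1 and 2 (-0.38 to -0.30).

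The exceptions were few. Bop1, which is needed to mature the large subunit, rose in tumours (0.28 ± 0.086, adjusted p = 0.0191) and fell in cells (-0.86 ± 0.038), and it is the 1 gene of the list that rose, a call that was lost without RMC-6236 tumour 3 (0.22) or vehicle tumour 4 (0.26). Nhp2 (-0.13 ± 0.094 in tumours, adjusted p = 0.298) and Dkc1 (-0.34 ± 0.14 in tumours, adjusted p = 0.0711), both parts of the particles that make pseudouridine, fell in cells (-1.34 and -1.54) without passing the test in tumours.

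Genes of sterol synthesis fell in both. Of 25 genes 16 fell and 1 rose in tumours (median -0.61), and 23 fell in cells (median -0.52), with a median difference of 0.02 and a mean difference of -0.02. With single samples left out, 13 to 21 fell in tumours and 23 to 24 in cells. The arms did not overlap for 10 genes in tumours and for 24 in cells. The share of all genes without overlap is not given here, so these counts cannot be read as a trait of the list. The list score lay between -0.96 and -0.08 in RMC-6236 tumours and between -0.14 and 0.27 in vehicle tumours. The difference was called above 0 for 5 genes (8 without RMC-6236 tumour 1, and 3 without RMC-6236 tumour 3 or vehicle tumour 2, 3 or 4) and below 0 for 4 (8 without RMC-6236 tumour 3). On the tazemetostat background it was called above 0 for 2 and below 0 for 8 (median -0.06), while 16 fell in tumours and 19 in cells. Of 14 fatty acid synthesis genes, 8 fell and 2 rose in tumours (median -0.36), and 12 fell and 2 rose in cells (median -0.34).

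Autophagy and lysosome genes, which rise when growth signals are withdrawn, rose in both and less in tumours. Of 35 genes 25 rose and 1 fell in tumours (median 0.27), and 31 rose and 2 fell in cells (median 0.60), with the tumour effect below the cell effect for 22 and above it for 3. Atp6v0d1, a subunit of the proton pump of lysosomes, had 34.5, 33.4, 35.5 and 36.7 FPKM in RMC-6236 tumours, against 26.02, 26.9, 26.3 and 28.5 FPKM in vehicle tumours. For Atp6v0d1 the cultures gave 55.9, 54.4 and 55.8 FPKM in RMC-6236 cells, against 24.2, 25.3 and 25.4 FPKM in DMSO cells. The arms did not overlap, with effects of 0.37 ± 0.062 in tumours and 1.12 ± 0.027 in cells (difference adjusted p = 1.20e-08). Neu1, the lysosomal sialidase, is the gene of the list that fell in tumours (-0.23 ± 0.076, adjusted p = 0.0282), a call that was lost without RMC-6236 tumour 2 (-0.18) or 3 (-0.22) or vehicle tumour 3 (-0.18), and it rose in cells (1.64 ± 0.027).

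More interferon-stimulated genes fell than rose in tumours, and most of them rose in cells. These genes are switched on by interferon through STAT and IRF factors, and 25 of the 50 listed met the level rule. In tumours 3 rose (1 without vehicle tumour 3) and 11 fell (median -0.29), while in cells 20 rose and 2 fell (median 0.54). The tumour effect was below the cell effect for 22 of the 25 and above it for 1. In the other 14 samples these counts were 21 and 1, with 1 higher and 10 lower in tumours and 18 higher and 2 lower in cells. There the list score, minus the mean of vehicle tumours, lay between -0.33 and -0.13 in combination tumours. Tazemetostat tumours 1 and 2 lay within that range (-0.29 and -0.24), and tumours 3 and 4 lay above it (0.56 and 0.15).

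Isg15, which encodes a ubiquitin-like protein, had 2.28, 4.49, 5.05 and 3.49 FPKM in RMC-6236 tumours, against 9.94, 17.3, 17.7 and 16.4 FPKM in vehicle tumours. In culture it had 3.78, 2.99 and 3.77 FPKM in RMC-6236 cells, against 1.43, 1.91 and 1.74 FPKM in DMSO cells. Oas3, a sensor of double-stranded RNA, had 0.132, 0.293, 0.26 and 0.316 FPKM in RMC-6236 tumours, against 0.712, 1.72, 1.68 and 2.03 FPKM in vehicle tumours. In neither gene did the arms overlap in tumours, where all RMC-6236 samples were lower, and in cells all RMC-6236 samples were higher (for Oas3 4.06, 3.94 and 3.91 FPKM in RMC-6236 cells, against 1.81, 2.30 and 2.44 FPKM in DMSO cells). Their tumour effects were -1.76 ± 0.38 for Isg15 (adjusted p = 0.00232) and -0.99 ± 0.26 for Oas3 (adjusted p = 0.00762), and their cell effects were 0.74 ± 0.14 for Isg15 and 0.65 ± 0.075 for Oas3. These 2 genes were chosen after their values were seen, since their levels in cells, and those of Oas3 in tumours, were below the 5 FPKM that the rule for named genes asks for.

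Trim25, the ubiquitin ligase of the RIG-I pathway, had 12.7, 12.9, 10.8 and 12.9 FPKM in RMC-6236 tumours, against 17.98, 21.4, 18.9 and 19.3 FPKM in vehicle tumours. In cells, Trim25 had 23.7, 24.2 and 24.7 FPKM in RMC-6236 cells, against 19.1, 19.4 and 18.9 FPKM in DMSO cells. The arms did not overlap in either setting, and the effects were -0.61 ± 0.081 in tumours and 0.32 ± 0.029 in cells (difference adjusted p = 3.19e-08). Gbp2, a guanylate-binding protein induced by interferon gamma, had 0.13 ± 0.28 in tumours (adjusted p = 0.74), where the arms overlapped, and the largest rise of the list in cells (1.83 ± 0.061).

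The promoters of Isg15 and Oas3 are shown because they hold the letters of the interferon-stimulated response element (ISRE), in capitals, which were searched as 2 copies of GAAA with any 2 bases between them, where matches may overlap. They are from RefSeq on GRCm38.p6, cut and written as above. Isg15 lies at chr4:156200769-156201068 (minus strand) and Oas3 at chr5:120777610-120777909 (minus strand).
Isg15: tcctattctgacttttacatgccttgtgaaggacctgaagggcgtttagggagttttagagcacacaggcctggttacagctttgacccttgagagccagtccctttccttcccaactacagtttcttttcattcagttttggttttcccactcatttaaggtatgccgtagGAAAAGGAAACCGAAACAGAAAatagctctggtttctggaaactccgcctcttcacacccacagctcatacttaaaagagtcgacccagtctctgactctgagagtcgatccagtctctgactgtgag
Oas3: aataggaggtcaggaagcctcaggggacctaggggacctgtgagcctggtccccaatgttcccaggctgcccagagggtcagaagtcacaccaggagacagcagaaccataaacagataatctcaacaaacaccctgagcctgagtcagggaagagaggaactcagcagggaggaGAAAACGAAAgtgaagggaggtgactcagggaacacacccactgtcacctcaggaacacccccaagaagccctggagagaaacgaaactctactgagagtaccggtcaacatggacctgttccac
The ISRE letters, searched on both strands, were in 8 of 25 promoters of the listed interferon-stimulated genes (32.0%) and in 5 of 16 promoters of the MHC class I list (31.2%). They were in 2.85% of the 10684 promoters of the genes described here and in 3.44% of all 32851 promoters. Among the 439 genes higher in tumours and lower in cells 3.86% of the promoters held them, and among the 560 genes lower in tumours and higher in cells 2.83%.

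Genes of MHC class I presentation rose in both. Of 16 genes 9 rose and none fell in tumours (median 0.35), and 14 rose and none fell in cells (median 0.34), with a median difference of -0.00076 and a mean of -0.05. H2-T23, a class I molecule outside the classical set, was the widest departure. It had 18.5, 18.6, 18.9 and 15.7 FPKM in RMC-6236 tumours, against 19.7, 21.9, 21.3 and 24.98 FPKM in vehicle tumours (-0.28 ± 0.11, adjusted p = 0.053; -0.33 and called without vehicle tumour 1). Cultured cells held H2-T23 at 27.8, 28.3 and 28.1 FPKM in RMC-6236 cells, against 13.4, 13.97 and 13.9 FPKM in DMSO cells (0.98 ± 0.036, adjusted p = 5.94e-11). Class I genes are close copies of each other, and how reads shared between them were counted is not stated.

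Of 26 NF-kB target and cytokine genes, 4 rose and 6 fell in tumours (median 0.07, mean -0.09; 10 fell without RMC-6236 tumour 2, and 2 rose without RMC-6236 tumour 4 or vehicle tumour 1), and 16 rose and 7 fell in cells (median 0.39), with a median difference of -0.21. The counts of 4 and 6 in tumours lay near the shares over all genes (17.5% higher, 21.6% lower). On the tazemetostat background 10 rose and 7 fell in tumours (median 0.15, mean 0.24), and 15 rose and 8 fell in cells (median 0.33), with a median difference of 0.20. Ccl7, which attracts monocytes, had 4.24, 6.11, 4.57 and 2.98 FPKM in RMC-6236 tumours, against 7.63, 7.02, 9.55 and 11.3 FPKM in vehicle tumours. Ccl7 in culture stood at 6.50, 6.25 and 6.12 FPKM in RMC-6236 cells, against 1.60, 2.39 and 1.81 FPKM in DMSO cells. It fell in tumours and rose in cells with no overlap of the arms (difference -2.18 ± 0.26, adjusted p = 7.88e-07). Ccl2, a related chemokine, had -0.32 ± 0.24 in tumours (adjusted p = 0.306) and rose in cells (1.22 ± 0.044). Il33, an alarm cytokine of epithelial cells, had 31.4, 65.2, 29.1 and 24.03 FPKM in RMC-6236 tumours, against 58.1, 42.9, 48.03 and 47.4 FPKM in vehicle tumours, the second RMC-6236 tumour lying above all others. Its tumour effect was -0.48 ± 0.24 (adjusted p = 0.123) and without that tumour -0.78 and called, and it fell in cells (-2.14 ± 0.037). Macrophage markers rose in the same tumours, as given above.

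Epithelial genes were lower in RMC-6236 tumours and mixed in cells. Of 21 epithelial identity genes 11 fell and none rose in tumours (median -0.68), while 11 rose and 9 fell in cells (median 0.15). The tumour effect was below the cell effect for 14 and above it for none. Cdh1, the adhesion molecule E-cadherin, had 45.5, 37.6, 26.5 and 34.6 FPKM in RMC-6236 tumours, against 69.4, 76.1, 81.01 and 66.3 FPKM in vehicle tumours. For Cdh1 the cultures gave 31.7, 30.7 and 30.6 FPKM in RMC-6236 cells, against 21.8, 21.9 and 22.99 FPKM in DMSO cells. The arms did not overlap in either setting, with effects of -1.02 ± 0.23 in tumours (adjusted p = 0.00336) and 0.46 ± 0.033 in cells (adjusted p = 3.26e-08). Cd24a, a surface sialoglycoprotein of epithelial cells, fell in tumours (-0.60 ± 0.15) and rose in cells (1.11 ± 0.034).

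The genes named next ranked highest, by the rule for named genes, among those that fell in tumours and rose in cells. Msln, which encodes the surface protein mesothelin, had 89.4, 76.8, 79.2 and 85.6 FPKM in RMC-6236 tumours, against 165, 128, 180.5 and 153 FPKM in vehicle tumours. In culture it had 88.9, 92.9 and 90.2 FPKM in RMC-6236 cells, against 41.1, 43.7 and 42.2 FPKM in DMSO cells. Tm4sf4, a membrane protein of the tetraspanin-like family, had -0.93 ± 0.15 in tumours and 0.89 ± 0.028 in cells, and Misp, which anchors the mitotic spindle to actin, had -1.02 ± 0.22 in tumours and 1.19 ± 0.054 in cells. The drug-metabolising enzymes Cyp3a13 (-0.93 ± 0.23 in tumours, 1.32 ± 0.041 in cells) and Ephx2 (-1.21 ± 0.21 in tumours, 0.93 ± 0.048 in cells) moved in the same way. In all 5 of these genes the arms did not overlap in either setting. Of the 5 epithelial markers 4, Cdh1 among them, fell in these tumours. For Epcam the arms overlapped (76.8 to 136 FPKM in RMC-6236 tumours, 67.9 to 154 FPKM in vehicle tumours). Whether Msln, Tm4sf4, Misp, Cyp3a13 and Ephx2 fell more than epithelial RNA as a whole was not tested.

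Of 19 gastric and classical genes, which mark the differentiated subtype of pancreatic cancer, 10 fell and none rose in tumours (median -0.79), while 9 rose and 9 fell in cells (median 0.04, mean -0.11). Cdx2, an intestinal transcription factor, had 13.4, 12.5, 14.8 and 18.1 FPKM in RMC-6236 tumours, against 19.3, 22.2, 20.5 and 20.8 FPKM in vehicle tumours. In cells, Cdx2 had 165, 159.5 and 163 FPKM in RMC-6236 cells, against 88.7, 84.4 and 90.6 FPKM in DMSO cells. It fell in tumours and rose in cells without overlap (difference -1.36 ± 0.14, adjusted p = 1.25e-07). Agr2, a chaperone of mucins, had 10.1, 10.3, 5.69 and 3.31 FPKM in RMC-6236 tumours, against 12.8, 39.4, 42.6 and 38.5 FPKM in vehicle tumours, and with the first vehicle tumour far below the other 3 the tumour effect of -2.01 ± 0.77 missed the threshold (adjusted p = 0.0528; -2.41 and called without that tumour). In cells it had the largest fall of all 11303 genes, with 0.807, 0.351 and 0.613 FPKM in RMC-6236 cells, against 30.5, 30.4 and 30.2 FPKM in DMSO cells. Its difference of 2.30 ± 0.78 (adjusted p = 0.0212) was lost without RMC-6236 tumour 1 (2.13) or 2 (2.12) or vehicle tumour 1 (1.90).

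Among 10 members of the EGFR family and their ligands, 8 fell and none rose in tumours (median -0.83), while 4 rose and 6 fell in cells (median -0.40). Errfi1, an inhibitor of EGFR, had 58.97, 57.9, 43.6 and 32.2 FPKM in RMC-6236 tumours, against 74.9, 92.9, 80.2 and 78.6 FPKM in vehicle tumours. Cultured cells held Errfi1 at 85.3, 86.95 and 86.4 FPKM in RMC-6236 cells, against 68.8, 69.7 and 73.6 FPKM in DMSO cells. The receptor gene Erbb3 likewise fell in tumours (-0.88 ± 0.26) and rose in cells (0.19 ± 0.042). Cldn2, which forms cation pores in tight junctions, fell in both and more in tumours (-2.26 ± 0.24) than in cells (-0.34 ± 0.034; difference adjusted p = 6.52e-06).

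Extracellular matrix genes rose in both. Of 29 collagen and matrix genes 21 rose and 1 fell in tumours (median 0.75), and 21 rose and 4 fell in cells (median 0.43). The tumour effect was above the cell effect for 11 and below it for 4. Sparc, a collagen-binding secreted protein, had 1230.2, 967, 1031 and 1036 FPKM in RMC-6236 tumours, against 334, 341, 303 and 397 FPKM in vehicle tumours. Sparc in culture stood at 139, 137 and 140.1 FPKM in RMC-6236 cells, against 55.6, 57.5 and 58.4 FPKM in DMSO cells. Col1a1, the main chain of type I collagen, had 2219.9, 1654, 1724 and 1646 FPKM in RMC-6236 tumours, against 449, 567, 404 and 523 FPKM in vehicle tumours. For Col1a1 the cultures gave 22.4, 22.3 and 22.5 FPKM in RMC-6236 cells, against 7.52, 7.27 and 8.33 FPKM in DMSO cells. In neither gene did the arms overlap in either setting, and the effects were 1.63 ± 0.12 in tumours and 1.26 ± 0.027 in cells for Sparc, and 1.90 ± 0.20 in tumours and 1.43 ± 0.054 in cells for Col1a1. The difference for Sparc (0.37 ± 0.12, adjusted p = 0.0163) was lost without RMC-6236 tumour 1 (0.30) or vehicle tumour 3 (0.31). Col1a1 and 4 others of the fibroblast marker list are among the 11303 genes. All 5 rose in tumours, and in cells 4 rose and 1 fell. Of the whole list of 14 fibroblast markers 10 rose in tumours.

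Pmp22, a growth arrest gene of nerve sheath cells (2.17 ± 0.26 in tumours, 1.43 ± 0.041 in cells), Fstl1 (1.28 ± 0.18 in tumours, 1.65 ± 0.031 in cells), the actin-bundling gene Palld (1.34 ± 0.14 in tumours, 1.73 ± 0.048 in cells) and Tlr2, a receptor for bacterial lipoproteins (1.47 ± 0.11 in tumours, 1.38 ± 0.07 in cells), also rose in both without overlap. The difference was called for Pmp22 (0.74, adjusted p = 0.0269) and Palld (-0.39, adjusted p = 0.0283). It was lost for Pmp22 without RMC-6236 tumour 3 or 4 or vehicle tumour 2 or 3 (0.53 to 0.71) and for Palld without RMC-6236 tumour 1 or 4 or vehicle tumour 2 or 4 (-0.37 to -0.29), and it was gained for Fstl1 without vehicle tumour 2 (-0.56). The matrix protein Tnc rose in both and less in tumours (1.05 ± 0.24) than in cells (1.93 ± 0.04).

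Other matrix genes parted. Timp1, an inhibitor of matrix metalloproteases, had 171, 254, 190.4 and 163 FPKM in RMC-6236 tumours, against 83.5, 76.1, 82.8 and 88.6 FPKM in vehicle tumours. In culture it had 13.7, 12.3 and 13.5 FPKM in RMC-6236 cells, against 17.3, 22.5 and 21.7 FPKM in DMSO cells. It rose in tumours and fell in cells with a difference of 1.79 ± 0.16 (adjusted p = 2.93e-09). Its relative Timp3 had 97.5, 159.7, 82.5 and 63.3 FPKM in RMC-6236 tumours, against 60.8, 73.1, 76.98 and 111 FPKM in vehicle tumours, with overlapping arms, and rose in cells (2.78 ± 0.036). Plod2, which modifies collagen so that it can be cross-linked, rose in tumours (0.90 ± 0.13) and had 0.01 ± 0.05 in cells (adjusted p = 0.828). Mmp3, a protease of the matrix, had 5.19, 14.5, 6.11 and 6.27 FPKM in RMC-6236 tumours, against 3.13, 1.12, 2.75 and 2.07 FPKM in vehicle tumours. In cells, Mmp3 had 3.003, 3.002 and 2.93 FPKM in RMC-6236 cells, against 5.80, 5.65 and 6.03 FPKM in DMSO cells. The receptor gene Pdgfra, which is on the fibroblast marker list, rose in tumours (0.69 ± 0.25, adjusted p = 0.043) and fell in cells (-0.62 ± 0.046). Its tumour call was lost without any 1 of the RMC-6236 tumours or of vehicle tumours 1, 3 and 4 (0.59 to 0.74).

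Medag, a gene named for a role in fat cell formation, had the widest gap of the genes that rose in tumours and fell in cells. It had 60.2, 69.3, 60.4 and 62.1 FPKM in RMC-6236 tumours, against 33.8, 28.7, 33.6 and 40.1 FPKM in vehicle tumours. Cultured cells held Medag at 8.67, 7.78 and 7.60 FPKM in RMC-6236 cells, against 41.4, 39.6 and 40.5 FPKM in DMSO cells. The arms lay apart in both settings, and the difference was 3.08 ± 0.15 (adjusted p = 4.55e-12), with 3.14 in the other 14 samples. Aqp5, a water channel of glands, had 0.91 ± 0.22 in tumours and -1.79 ± 0.057 in cells.

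Targets of YAP and TEAD, which respond to cell shape and stiffness, rose in cells and had no common direction in tumours. Their tumour counts lay near the shares over all genes (17.5% higher, 21.6% lower). Of 20 genes 4 rose and 3 fell in tumours (median -0.0010, mean -0.06; 2 rose without RMC-6236 tumour 3 or vehicle tumour 3), and 13 rose and 3 fell in cells (median 0.37). Ccn1, a secreted matrix protein, had 93.6, 104, 69.9 and 41.8 FPKM in RMC-6236 tumours, against 41.2, 56.9, 44.1 and 51.1 FPKM in vehicle tumours. Ccn1 in culture stood at 185, 189 and 184 FPKM in RMC-6236 cells, against 25.9, 25.9 and 28.3 FPKM in DMSO cells. The tumour arms overlapped (0.60 ± 0.23, adjusted p = 0.0548; 0.86 and called without RMC-6236 tumour 4) and the cell arms did not (2.76 ± 0.045). Ankrd1 (-0.10 ± 0.19 in tumours, 1.49 ± 0.049 in cells) and Thbs1 (0.31 ± 0.20 in tumours, 1.65 ± 0.025 in cells) rose in cells alone, with differences called (adjusted p = 3.73e-06 and 4.93e-05).

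Of 17 contractile and SRF target genes 7 rose and 1 fell in tumours (median 0.20; 4 rose without RMC-6236 tumour 2 or 3 or vehicle tumour 3 or 4), and 16 rose and 1 fell in cells (median 0.47). Cald1, which binds actin and calmodulin, had 53.6, 56.4, 43.3 and 43.2 FPKM in RMC-6236 tumours, against 32.1, 34.9, 30.1 and 35.3 FPKM in vehicle tumours. For Cald1 the cultures gave 31.5, 31.2 and 31.5 FPKM in RMC-6236 cells, against 12.2, 11.5 and 11.7 FPKM in DMSO cells. It rose in both, and less in tumours, with a difference of -0.79 ± 0.11 (adjusted p = 5.24e-06). On the tazemetostat background 9 genes of the list rose and 2 fell in tumours (median 0.21), and 7 rose and 6 fell in cells (median -0.03), and the difference for Cald1 was -0.01 (adjusted p = 0.93).

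**Figure D5:**
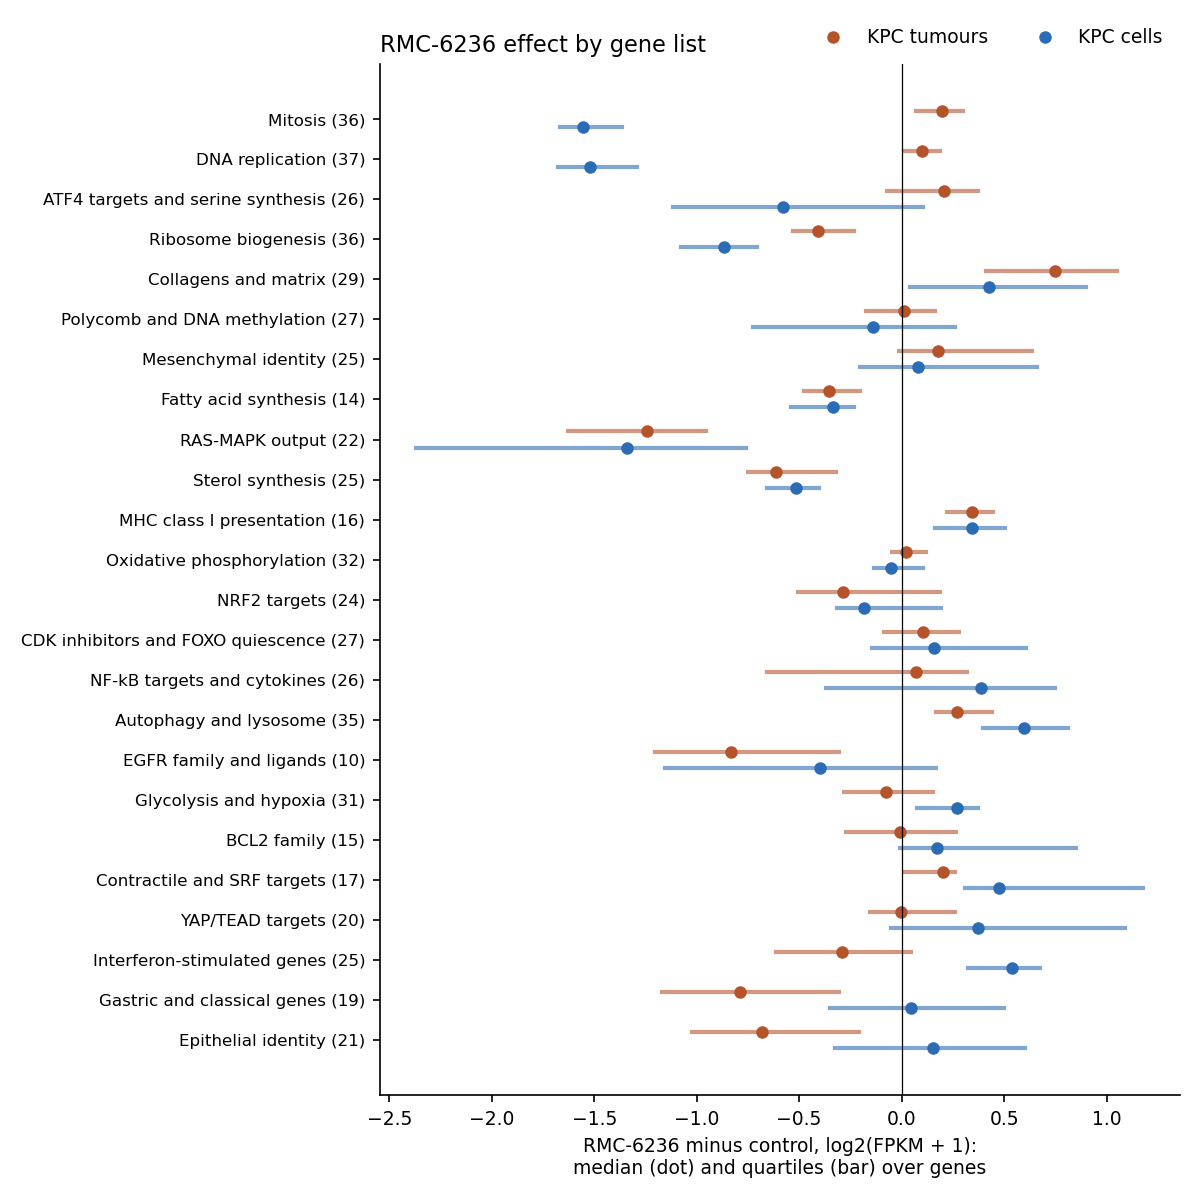
Median and quartiles of the RMC-6236 effect in tumours (upper of each pair) and cells (lower) for 24 gene lists, ordered by the median difference, with the number of genes in brackets. Mitosis and DNA replication stand at the top, with medians of 0.20 (mitosis) and 0.10 (DNA replication) in tumours and -1.55 (mitosis) and -1.52 (DNA replication) in cells, and epithelial identity at the bottom, with -0.68 in tumours and 0.15 in cells.

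Of 31 glycolysis and hypoxia genes 5 rose and 6 fell in tumours (median -0.07; 11 fell without RMC-6236 tumour 2 and 3 without RMC-6236 tumour 3), and 23 rose and 7 fell in cells (median 0.27), and the tumour effect was below the cell effect for 15 and above it for none. The 5 and 6 in tumours lay near the shares over all genes (17.5% higher, 21.6% lower). In the other 14 samples 3 rose and 21 fell in tumours (median -0.57), and the difference was below 0 for 27 and above 0 for 1. Hk2, a hexokinase, had 9.02, 13.6, 5.46 and 8.28 FPKM in RMC-6236 tumours, against 20.4, 19.4, 18.8 and 19.4 FPKM in vehicle tumours and fell in both, more in tumours (-1.08 ± 0.18) than in cells (-0.13 ± 0.029). The glucose transporter Slc2a1 had 33.4, 75.7, 24.4 and 43.5 FPKM in RMC-6236 tumours, against 71.8, 70.8, 80.1 and 79.8 FPKM in vehicle tumours, so that the second RMC-6236 tumour lay among the vehicle tumours, and its effect was -0.88 ± 0.27 in tumours (adjusted p = 0.0195; not called without RMC-6236 tumour 1, at -0.79, or 3, at -0.64) and 0.24 ± 0.025 in cells. Of 32 oxidative phosphorylation genes 5 rose and 4 fell in tumours (median 0.02), where 17.5% of all genes rose and 21.6% fell. The number that rose was 2 without RMC-6236 tumour 3 or vehicle tumour 1, and 3 without RMC-6236 tumour 4 or vehicle tumour 2. In cells 9 rose and 11 fell (median -0.05), where 36.6% of all genes rose and 37.7% fell.

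Of 24 NRF2 targets, genes of the oxidant defence, 2 rose and 12 fell in tumours (median -0.29), and 7 rose and 15 fell in cells (median -0.18). Gclc, the enzyme that starts glutathione synthesis, had 13.5, 12.4, 11.5 and 18.4 FPKM in RMC-6236 tumours, against 50.7, 27.9, 64.02 and 47.6 FPKM in vehicle tumours. In culture it had 80.9, 81.8 and 80.8 FPKM in RMC-6236 cells, against 92.1, 89.8 and 91.99 FPKM in DMSO cells. It fell in both without overlap and more in tumours (-1.66 ± 0.20) than in cells (-0.17 ± 0.027).

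Of 15 genes of the BCL2 family, which decides on cell death, 6 rose and 3 fell in tumours (median -0.01; 3 rose without RMC-6236 tumour 4 or vehicle tumour 1), and 8 rose and 3 fell in cells (median 0.17). On the tazemetostat background none rose and 7 fell in tumours (median -0.19), and 9 rose and 4 fell in cells (median 0.33). Bmf, a killer member that holds BCL2 in check, had 16.4, 13.6, 19.2 and 27.3 FPKM in RMC-6236 tumours, against 11.7, 14.6, 12.6 and 10.2 FPKM in vehicle tumours, with overlapping arms and an effect at the threshold (0.57 ± 0.22, adjusted p = 0.0498), which was lost without RMC-6236 tumour 1, 3 or 4 or vehicle tumour 1, 3 or 4 (0.39 to 0.62). It rose in cells, with 37.4, 37.8 and 36.9 FPKM in RMC-6236 cells, against 10.5, 10.6 and 10.98 FPKM in DMSO cells. Bcl2, the protective member, had 4.62, 3.36, 3.39 and 2.21 FPKM in RMC-6236 tumours, against 7.95, 8.93, 6.12 and 6.88 FPKM in vehicle tumours. In cells, Bcl2 had 5.56, 5.32 and 5.62 FPKM in RMC-6236 cells, against 4.83, 4.63 and 4.82 FPKM in DMSO cells. It fell in tumours and rose in cells (difference -1.14 ± 0.19, adjusted p = 7.84e-05).

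Ezh2, the target of tazemetostat, had 4.79, 5.74, 5.64 and 5.54 FPKM in RMC-6236 tumours, against 5.38, 6.79, 4.67 and 4.82 FPKM in vehicle tumours. Cultured cells held Ezh2 at 5.84, 6.48 and 6.59 FPKM in RMC-6236 cells, against 11.95, 11.8 and 11.7 FPKM in DMSO cells. The tumour arms overlapped (0.01 ± 0.12, adjusted p = 0.944), the cell arms did not (-0.81 ± 0.048, adjusted p = 6.05e-09), and the difference was called (adjusted p = 1.63e-05). Of 27 polycomb and DNA methylation genes 4 rose and 7 fell in tumours (median 0.01), near the shares over all genes (17.5% higher, 21.6% lower). Without RMC-6236 tumour 3 the number that fell in tumours was 4. In cells 8 rose and 14 fell (median -0.14). Of 25 mesenchymal identity genes 11 rose and 2 fell in tumours (median 0.18), and 12 rose and 7 fell in cells (median 0.08), while in the other 14 samples 10 rose and 6 fell in tumours (median 0.16) and 10 rose and 13 fell in cells (median -0.15).

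Some genes passed the test in cells, not in tumours, with a called difference. Dusp1, a phosphatase of p38 and JNK, had an effect of 0.25 ± 0.29 in tumours (adjusted p = 0.519), and it rose in cells, with 15.2, 14.4 and 14.2 FPKM in RMC-6236 cells, against 2.61, 2.496 and 2.27 FPKM in DMSO cells (difference adjusted p = 5.17e-05). Wnt7b, a WNT ligand, had 51.1, 69.1, 52.7 and 37.5 FPKM in RMC-6236 tumours, against 44.1, 55.2, 47.9 and 48.9 FPKM in vehicle tumours, and it fell in cells, with 2.75, 2.34 and 2.38 FPKM in RMC-6236 cells, against 22.5, 21.6 and 23.9 FPKM in DMSO cells. For Wnt7b the tumour arms overlapped and the cell arms lay apart, with a difference of 2.83 ± 0.19 (adjusted p = 1.39e-09).

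Other genes passed the test in tumours, not in cells, with a called difference. Plpp1, a lipid phosphatase, had 19.8, 18.03, 21.6 and 22.7 FPKM in RMC-6236 tumours, against 7.40, 6.80, 6.37 and 7.53 FPKM in vehicle tumours. Plpp1 in culture stood at 7.20, 6.72 and 7.08 FPKM in RMC-6236 cells, against 6.21, 6.80 and 6.997 FPKM in DMSO cells. Car8, a protein related to the carbonic anhydrases, had 3.79, 3.75, 3.53 and 2.59 FPKM in RMC-6236 tumours, against 12.5, 11.6, 11.6 and 11.96 FPKM in vehicle tumours, and in culture 23.6, 23.9 and 23.4 FPKM in RMC-6236 cells, against 23.7, 24.3 and 23.8 FPKM in DMSO cells. For both genes the tumour arms lay apart and the cell arms overlapped, and the difference was 1.36 ± 0.14 for Plpp1 (adjusted p = 3.94e-08) and -1.54 ± 0.11 for Car8 (adjusted p = 3.24e-09). The transcription factor genes Cebpa (1.09 ± 0.13) and Snai1 (1.02 ± 0.23), a repressor of E-cadherin, rose in tumours, and the lectin gene Lgals2 (-1.46 ± 0.30) and the cGMP-dependent kinase gene Prkg2 (-1.37 ± 0.22) fell there. The cell effects were 0.12 ± 0.10 for Cebpa, -0.10 ± 0.069 for Snai1, -0.09 ± 0.044 for Lgals2 and -0.04 ± 0.03 for Prkg2 and passed no test, although without DMSO sample 2 Snai1 passed it at -0.17 and without DMSO sample 1 Lgals2 at -0.12.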

How the data were processed

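RNA-seq values were read for KPC orthotopic tumours (16 samples, 4 per arm) and KPC cells (12 samples, 3 per arm). Per the labels, libraries were made with a stranded mRNA kit, and STAR 2.5.3a, StringTie 1.3.1c and FastQC 0.11.2 are listed in the submitters' processing notes. The mouse build and the strand used in counting are not given in the sources used here. The authors deposited FPKM values, which hold no read totals, so depth is unknown and precision comes from the spread between samples.

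Values were taken to log2(FPKM + 1). limma 3.58.1 (R 4.3.3, eBayes with trend and robust, statmod 1.5.0) fitted 4 arms per table to genes at 1 FPKM or more in at least 4 tumour or 3 cell libraries. Tests were two-sided, with the Benjamini-Hochberg adjustment taken across every gene tested and a threshold of 0.05. The difference of the 2 effects combined the standard errors of both fits, with Satterthwaite degrees of freedom, and was adjusted over 11303 genes. Both steps were tested on simulated data.

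The genes named are part of those with at least 5 FPKM in 1 arm of each table and no library at 0, taken by rank within each class (called in both without overlap, opposite, 1 setting only, unequal) and up to 4 per list by called difference, with Dusp6 and Ezh2 in any case and Isg15 and Oas3 added after their values were seen. The 24 gene lists, 14 marker lists and members were chosen with earlier results of these data known. Alternatives were another pseudocount, no filter, other member rules, rescaling, other eBayes options, compared arms alone, a replicate block, 1 joint fit and leaving out each sample. RefSeq promoters were matched by symbol (8368 of 11303 genes). Figures used matplotlib 3.10.9. Some genes are not reported here.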

Additional observations from a re-analysis of the deposited data

Results flagged for a closer look

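For the genes named in the report, the tumour effect minus the cell effect of RMC-6236 (log2 units, limma standard errors combined, Benjamini-Hochberg adjustment) was tested, and 78 differences passed the threshold, where 6293 of all genes tested passed (55.7%). Most of the genes were named because of their difference, so the count says nothing about genes at large. With the tumour effect above the cell effect, the difference among RAS output genes and Il5ra was 1.03 for Areg, 1.41 for Il5ra, 0.92 for Etv5, 1.11 for Spry4, 2.33 for Etv4 and 1.51 for Egr1. Among genes of the cell cycle it was 2.29 for Aurkb, 2.24 for Ccna2, 2.23 for Top2a, 2.22 for Plk1, 2.11 for Spc24, 2.32 for Mcm5, 2.22 for Cdc45, 2.15 for Mcm3, 2.02 for Uhrf1, 1.32 for Cdkn2c, 1.63 for Rbl1 and 0.82 for Ezh2. Among genes of amino acid supply and ribosomes it was 2.40 for Slc7a5, 2.15 for Psat1, 1.95 for Shmt2, 1.80 for Atf5, 1.10 for Nop56, 1.21 for Nhp2, 1.20 for Dkc1, 1.14 for Bop1 and 1.65 for Lyar. Among matrix and other genes it was 0.74 for Pmp22, 0.37 for Sparc, 1.79 for Timp1, 0.89 for Plod2, 2.30 for Agr2, 2.83 for Wnt7b, 1.66 for Il33, 2.70 for Aqp5, 3.08 for Medag, 2.18 for Mmp3, 1.304 for Pdgfra, 1.36 for Plpp1, 0.97 for Cebpa and 1.11 for Snai1.

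With the tumour effect below the cell effect, the difference among interferon, immune and cytokine genes was -2.51 for Isg15, -1.64 for Oas3, -1.69 for Gbp2, -0.94 for Trim25, -1.26 for H2-T23, -2.18 for Ccl7 and -1.53 for Ccl2. Among epithelial, gastric and receptor genes it was -1.13 for Epha2, -2.21 for Misp, -1.98 for Msln, -1.81 for Tm4sf4, -2.25 for Cyp3a13, -2.14 for Ephx2, -1.71 for Cd24a, -1.49 for Cdh1, -1.36 for Cdx2, -1.92 for Cldn2, -1.07 for Errfi1, -1.06 for Erbb3, -1.54 for Car8, -1.37 for Lgals2 and -1.33 for Prkg2. Among genes of YAP, contraction and matrix it was -0.39 for Palld, -0.88 for Tnc, -2.51 for Timp3, -2.16 for Ccn1, -1.59 for Ankrd1, -1.34 for Thbs1 and -0.79 for Cald1. Among the remaining genes it was -1.87 for Neu1, -0.75 for Atp6v0d1, -1.92 for Dusp1, -1.49 for Gclc, -1.12 for Slc2a1, -0.95 for Hk2, -1.15 for Bmf and -1.14 for Bcl2.

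In 13 cases 1 tumour stood apart from the other 3 of its arm by Dixon's criterion, which chance meets in about 1 of 20 groups. How many groups were examined is not given here, so the 13 cases cannot be set against that rate. Among RMC-6236 tumours the highest value stood apart for Col1a1 (2220 FPKM), Tnc (67.4 FPKM), Mmp3 (14.5 FPKM) and Pdgfra (25.5 FPKM), and the lowest for Nop56 (22.0 FPKM), Trim25 (10.8 FPKM) and H2-T23 (15.7 FPKM). Among vehicle tumours the highest value stood apart for Spry4 (11.4 FPKM), Tnc (33.5 FPKM), Slc7a5 (19.5 FPKM) and Ankrd1 (20.5 FPKM), and the lowest for Isg15 (9.94 FPKM) and Agr2 (12.8 FPKM).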

How the results depend on the processing

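Counting only genes with a control mean of 5 FPKM or more, which by construction leaves fewer genes, gave 2913 called genes in tumours, 5354 in cells, 4102 called differences, 416 genes changed in tumours only and 2192 in cells only. Leaving out each RMC-6236 or control sample in turn gave 3606 to 4419 called genes in tumours, 8033 to 8401 in cells, 5829 to 6179 differences, 2056 to 2398 genes changed alike, 768 to 1040 opposed, 523 to 715 changed in tumours only and 3345 to 3645 in cells only. Every other count over all genes stayed within 1.5 times its value. For gene lists, with no filter on low values 2 mitosis, 4 contractile and 3 oxidative phosphorylation genes rose and 3 CDK inhibitor and quiescence genes fell in tumours, and 2 mitosis genes rose with the replicate block. With the compared arms alone 4 ATF4 and serine synthesis genes fell in tumours and 5 had a difference below 0, and 3 sterol synthesis genes had a difference above 0, as with a pseudocount of 0.1 or the replicate block. The replicate numbers did not pair the samples (same-number correlations from -0.21 to 0.06 in tumours and from -0.03 to 0.07 in cells), and the replicate block gave 4164 called genes in tumours, 8416 in cells, 6183 differences, 2338 changed alike, 952 opposed, 626 in tumours only and 3545 in cells only. Of the named genes, no effect or difference turned its sign while called. Calls that hung on single tumours are given above beside each gene. With the replicate block the tumour calls of Lyar (-0.37), Neu1 (-0.23), Pdgfra (0.69) and Bmf (0.57) were lost. Lyar (-0.37), Neu1 (-0.23), Pdgfra (0.69) and Bmf (0.57) were also lost with no filter on low values, and Bmf (0.60) and Etv5 (difference 0.98) with a pseudocount of 0.1. With the compared arms alone in the fit the difference of Pmp22 (0.74) was lost, and tumour calls of Agr2 (-2.01), Dkc1 (-0.34) and H2-T23 (-0.28) and the difference of Col1a1 (0.47) were gained. Rescaling by median ratios added tumour calls of Ccna2 (0.33) and Rbl1 (0.22). The causes were not tested. The number of tumours (4 per arm) and the unknown depth limit what is detectable for genes near 1 FPKM.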
